A study of Mus musculus with 160 samples.

Results

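The mouse mitochondrial genome carries 37 genes, and all 37 were found in the deposited count table by their symbols, which start with mt-, among 56980 gene identifiers. They are 13 protein genes, 2 rRNA genes and 22 tRNA genes. Counts came from 160 RNA-seq libraries of 35 male mice, with 32 libraries for each of 5 tissues: brown fat, quadriceps muscle, liver, subcutaneous fat and visceral fat. The mice belonged to the inbred strains SJL, C57BL/6J, DBA/2J and A/J, and the labels name no engineered allele or other treatment. After chow, each was put at 12 weeks of age on 1 of 4 diets modelled on human ones (American, Mediterranean, Vegetarian and Vegan) for 6 weeks, and tissues were taken at 18 weeks. Per the labels the diets were isocaloric and equal in macronutrients. Each combination of strain and diet had 2 mice per tissue, so that a strain had 8 libraries per tissue and the other strains together had 24. Counts per library totalled 18.0 to 54.8 M, and levels called CPM are counts per M of that total (M standing for mega). Some libraries held RNA of another tissue: with over 10% of the liver mean of Alb (the plasma albumin gene of hepatocytes) or markers of the other fat depot, 4 brown fat, 8 muscle, 5 subcutaneous and 10 visceral libraries stood out. With over 10% of the muscle mean of Ckm (muscle creatine kinase) or of the brown fat mean of Ucp1 (the uncoupling protein of brown adipocytes), 14 subcutaneous and 4 visceral libraries stood out.

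The mitochondrial genome is a small circle that is transcribed from both strands as long precursors. The precursors are cut mainly at the tRNAs that lie between the other genes, giving separate rRNAs, mRNAs and tRNAs. The protein genes encode core subunits of complexes I, III, IV and V of oxidative phosphorylation, and the rRNAs and tRNAs serve the ribosomes that translate them. All other subunits of these complexes come from nuclear genes. Brown fat, which makes heat, and muscle are known for many mitochondria. The libraries were made from polyadenylated RNA, so counts at a tRNA or rRNA gene can come from uncut precursors and neighbouring mRNAs as well as from the mature RNA, and these cannot be told apart in the table. Of the 37 genes, 9 are transcribed from the light strand, namely 8 tRNA genes and mt-Nd6.

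Reads of some of these genes can also be placed in the nuclear genome. A match of the GRCm39 mitochondrial sequence to the GRCm39 nuclear genome found 10 nuclear alignments of at least 200 bases and 90% identity. The count leaves out any match on 1 further autosome, so these 10 may not be all. The longest lay on the minus strand of chromosome 1 at positions 24650616 to 24655269, copied positions 6390 to 11042 of the mitochondrial genome and was 99.936% identical over 4654 aligned bases. It holds 11 members whole: mt-Ts1, mt-Td, mt-Co2, mt-Tk, mt-Atp8, mt-Atp6, mt-Co3, mt-Tg, mt-Nd3, mt-Tr and mt-Nd4l, that is 6 protein and 5 tRNA genes. It holds 31.3% of mt-Co1 and 63.6% of mt-Nd4, while 24 members lie outside it. Only 3 positions differ between the stretch and its copy in the reference genome. Counting from 1 at the first base of the mitochondrial genome, they are A6393T in mt-Co1, T9461C in mt-Nd3 and 1 extra A in mt-Tr. The sites in mt-Nd3 and mt-Tr are known to vary among the mitochondrial genomes of inbred strains, and the bases that these mice carry were not read here. The sequences below show both sites, because they lie beside mt-Tg and in mt-Tr, whose strain values are given further on. The capitals mark the differing base, which lies 3 bases past the end of mt-Tg (chrM:9391-9480 on the plus strand, chr1:24652179-24652268 on the minus strand, GRCm39), and the run of A in mt-Tr (chrM:9808-9875 on the plus strand, chr1:24651783-24651851 on the minus strand), which is 8 bases long in the mitochondrial gene and 9 in the copy.
mt-Tg and the next 22 bases, mitochondrial: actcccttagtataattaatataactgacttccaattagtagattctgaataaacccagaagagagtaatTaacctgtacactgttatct
mt-Tg and the next 22 bases, nuclear copy: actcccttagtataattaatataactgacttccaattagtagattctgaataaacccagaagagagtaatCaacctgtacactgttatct
mt-Tr, mitochondrial: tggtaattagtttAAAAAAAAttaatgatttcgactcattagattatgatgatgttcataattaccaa
mt-Tr, nuclear copy: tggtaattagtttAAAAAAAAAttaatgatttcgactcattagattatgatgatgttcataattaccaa

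Counts of the members were mostly not whole numbers. Within a tolerance of 1e-06, 8.63% of their non-zero values were whole, against 74.4% over all genes. Per the series' design text, the authors shared reads with several positions fractionally. A read of the 11 genes inside the stretch, or of part of mt-Co1 and mt-Nd4, may have been given wholly or partly to the copy, so their levels are uncertain. Counts that were not whole were not particular to the stretch. They made up 99.4% of libraries for mt-Nd1 and mt-Nd5 outside it, against 83.1% for mt-Co2 and 78.75% for mt-Tg inside it. mt-Nd1, at positions 2751 to 3707, lies in none of the 10 alignments and overlaps mt-Ti, which starts at position 3706. What made its counts not whole was not tested. A less similar copy on chromosome 4 (93.009% identity) spans positions 12488 to 15359, which hold mt-Nd6, mt-Te, mt-Cytb and part of mt-Nd5. Levels outside the stretch are therefore not free of this limit.

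Mitochondrial genes took 18.7 ± 2.86% of the counts of brown fat libraries (mean ± SD, n = 32), the highest share of the 5 tissues. The share was 10.6 ± 1.56% in muscle, 4.80 ± 2.08% in subcutaneous fat, 4.69 ± 0.860% in liver and 4.15 ± 1.28% in visceral fat, each over 32 libraries. Libraries spanned 13.5 to 25.2% in brown fat and 6.85 to 13.3% in muscle, which did not overlap. The spans were 2.81 to 11.7% in subcutaneous fat, 2.70 to 6.78% in liver and 2.73 to 8.87% in visceral fat, which overlapped each other. As a share of TPM (a level per gene length that sums to a fixed total in each library) the mean was 39.7% in brown fat, 23.5% in muscle, 12.0% in subcutaneous fat, 10.6% in visceral fat and 9.82% in liver. Protein genes made up 96.3 to 97.5% of the mitochondrial counts as tissue means, the rRNA genes 1.74 to 2.91%, the tRNA genes 0.67 to 0.82% and the light strand genes 2.19 to 3.41%. In bulk tissue, more mitochondria-rich cells and more mitochondrial RNA per cell cannot be told apart.

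Strains differed in this share within tissues, and these values are given as a description. In brown fat the share was 20.4 ± 1.40% in C57BL/6J, 21.4 ± 2.27% in A/J, 16.9 ± 2.48% in DBA/2J and 16.3 ± 1.03% in SJL (SD, n = 8 each). In muscle it was 11.9 ± 1.38% in C57BL/6J against 10.2 ± 1.42% in the other strains (n = 8 and 24). In liver it was 5.65 ± 0.885% in C57BL/6J against 4.37 ± 0.575% in the other strains. The C57BL/6J livers spanned 3.86 to 6.78% and so overlapped the others, which reached from 2.70 to 5.08%. In subcutaneous fat the SJL libraries stood apart, with 7.75 ± 2.06%, against 4.12 ± 0.945% in A/J, 3.77 ± 0.719% in C57BL/6J and 3.57 ± 0.397% in DBA/2J. The 8 SJL libraries spanned 5.68 to 11.7%, so that 1 A/J library at 6.00% lay within their range. In visceral fat the strain means lay between 3.36 ± 0.475% in DBA/2J and 4.50 ± 1.87% in A/J.

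**Figure D1:**
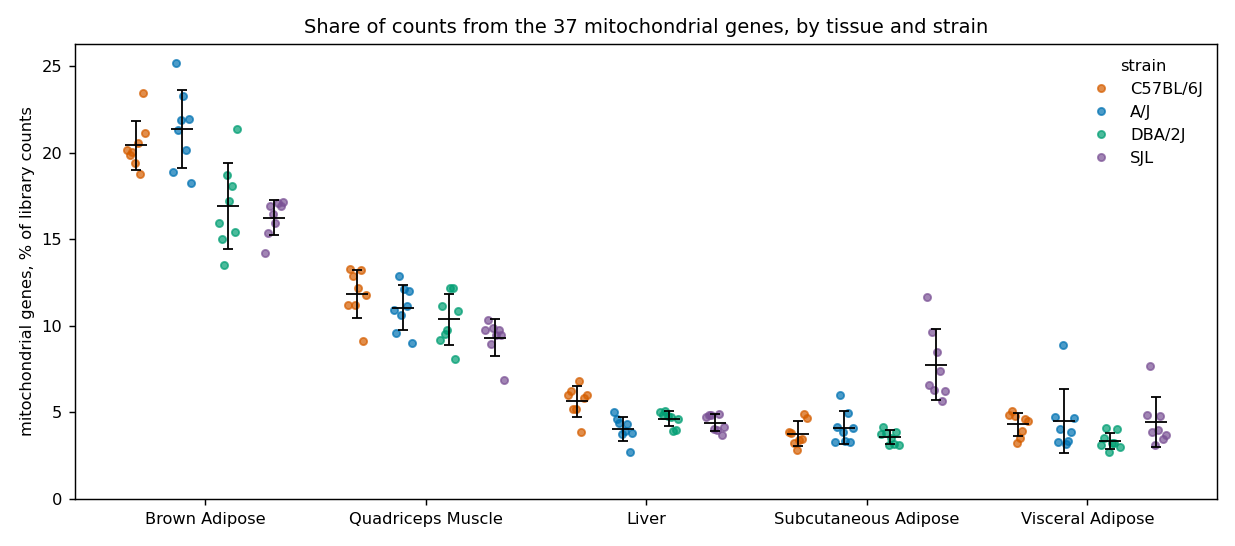
Share of each library's counts that fell in the 37 mitochondrial genes, in percent, by tissue and strain, with 1 point per library, a bar at the mean and an error bar of 1 SD. Brown fat libraries lie highest, with muscle next, and the SJL subcutaneous libraries lie at 5.68 to 11.7%.

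Diet means of the share are also given as a description, and the libraries of all 4 diets overlapped in every tissue. In liver they were 5.16 ± 0.615% on American, 4.66 ± 0.556% on Mediterranean, 4.57 ± 0.978% on Vegetarian and 4.35 ± 1.11% on Vegan (SD, n = 8 each). In muscle the lowest diet mean was 9.65 ± 1.78% on Vegan and the highest 11.5 ± 1.31% on Vegetarian. Diet means ran from 18.1 to 19.5% in brown fat, 4.49 to 5.16% in subcutaneous fat and 3.65 to 4.63% in visceral fat.

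Along the genome, levels changed sharply at the copied stretch. On the TPM scale, which corrects for gene length, mt-Co1, the catalytic subunit of complex IV, had the highest median in every tissue. It stood at 92946 TPM in brown fat, 58337 in muscle, 29697 in liver, 26854 in subcutaneous fat and 25373 in visceral fat. mt-Cytb, the cytochrome b of complex III, followed in brown fat with 80191 TPM. Among the complex I genes, brown fat medians were 51971 TPM for mt-Nd1, 41196 for mt-Nd2, 25165 for mt-Nd4, 12300.0 for mt-Nd6 and 12254 for mt-Nd5. The ranges of mt-Nd6 and mt-Nd5 over the 32 brown fat libraries, 6259.6 to 22218 and 7678 to 20304 TPM, overlapped almost wholly. The rRNA genes mt-Rnr1 and mt-Rnr2, which encode the small and large mitochondrial ribosomal RNAs, stood at 4336 and 5198 TPM. Mature mitochondrial rRNAs are abundant in cells but carry short tails at most, and polyadenylated RNA was selected here.

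Genes inside the stretch stood far lower. In brown fat, the complex V genes mt-Atp8 and mt-Atp6 had medians of 3432 and 3281 TPM, the complex IV genes mt-Co2 and mt-Co3 had 2704 and 2591, and the complex I genes mt-Nd4l and mt-Nd3 had 1009.8 and 448. Over the 6 protein genes inside the stretch, the median of their mean levels was 3342 TPM in brown fat, against 42393 TPM over the 5 protein genes outside. The ratio of outside to inside was 12.7 in brown fat, 18.9 in muscle, 26.9 in subcutaneous fat, 39.9 in liver and 42.3 in visceral fat. The protein genes inside also varied more between libraries. The SD of log2(CPM + 0.1) over 32 libraries had a median, across tissues, of 1.18 to 2.25 over the 6 protein genes inside the stretch and of 0.28 to 0.54 over the 5 outside it. The stretch took 0.0474 to 8.53% of the mitochondrial counts of a library, with medians of 1.78% in brown fat, 0.802% in muscle, 0.217% in subcutaneous fat, 0.202% in visceral fat and 0.157% in liver.

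Among tRNA genes, mt-Te, mt-Tp and mt-Tl1 had the highest levels in brown fat. mt-Te (glutamate), beside mt-Nd6 and mt-Cytb, had a brown fat median of 10099.8 TPM, mt-Tp (proline) 9485 and mt-Tl1 (leucine), between mt-Rnr2 and mt-Nd1, 4578. At the other end, mt-Tk (lysine) had 3.27 TPM, mt-Td (aspartate) 9.15, mt-Tr (arginine) 27.0, mt-Tg (glycine) 27.4 and mt-Tf (phenylalanine) 39.1. Of these 5 genes only mt-Tf lies outside the stretch. Of the remaining tRNA genes, mt-Tv (valine) had 82.6 TPM and the others had brown fat medians between 389.7 TPM for mt-Tt (threonine) and 2890.4 TPM for mt-Ty (tyrosine).

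**Figure D2:**
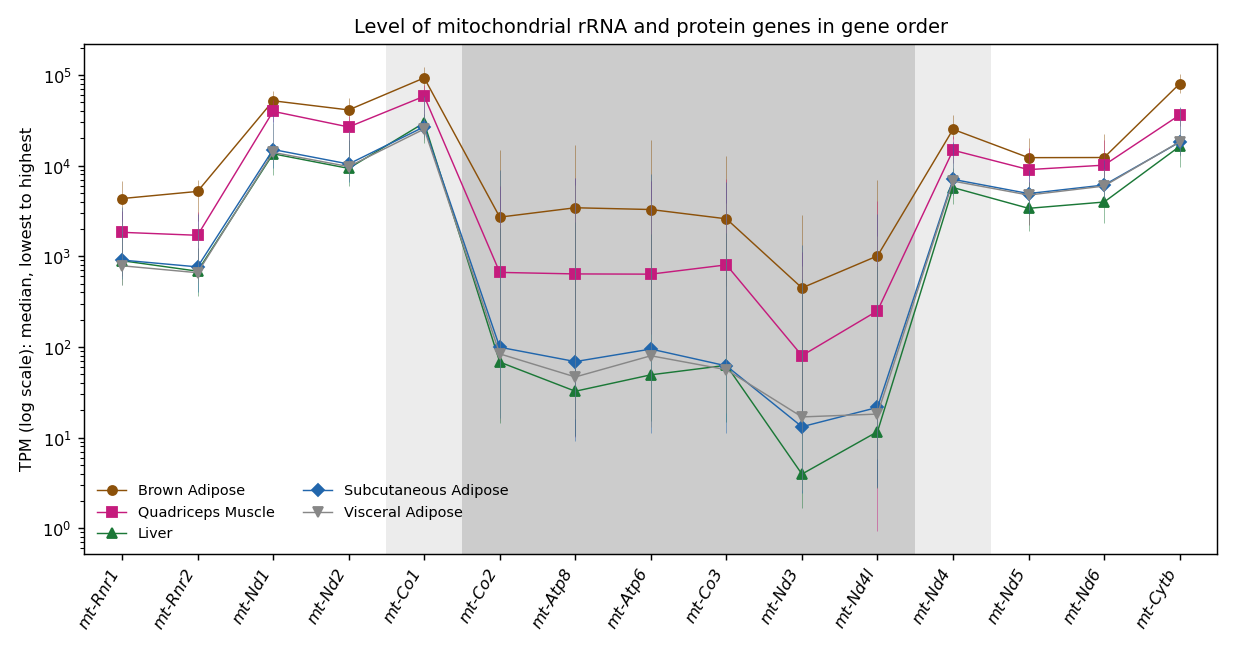
TPM of the 13 protein and 2 rRNA genes in their order on the genome, on a log axis, with 1 colour per tissue, points at the medians joined as a guide and a vertical line from the lowest to the highest of 32 libraries. Grey marks genes whole in the copied stretch, where levels drop and vertical lines lengthen, and light grey marks mt-Co1 and mt-Nd4, which lie partly in it.

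The balance among the 5 protein genes outside the stretch differed between tissues. mt-Cytb made up 40.1 ± 2.07% of their summed TPM in brown fat (SD, n = 32), 34.9 ± 2.40% in subcutaneous fat, 34.4 ± 2.28% in visceral fat, 33.4 ± 2.85% in liver and 29.3 ± 2.53% in muscle. mt-Nd1 made up 32.6 ± 2.20% in muscle and 26.2 ± 2.31% in brown fat. mt-Nd6, the light strand gene, made up 11.1 ± 1.50% in visceral fat and 6.54 ± 1.63% in brown fat. The ranges of mt-Cytb in brown fat, 36.2 to 45.7%, and in muscle, 21.2 to 33.2%, did not overlap. In liver, mt-Nd2 set C57BL/6J apart, with 27.6 ± 0.913% in C57BL/6J against 21.2 ± 1.38% in A/J, 19.6 ± 1.09% in DBA/2J and 19.3 ± 1.37% in SJL (n = 8 each). Part of mt-Nd2 lies in a second nuclear copy on chromosome 2, of 3260 aligned bases and 97.362% identity.

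All 37 genes were higher in brown fat than in the mean of the other 4 tissues, by the quasi-likelihood test of edgeR over 160 libraries with Benjamini-Hochberg adjustment over all 25409 genes tested. Of all genes, 34.3% were called higher in this comparison. The log2 difference in brown fat was 2.12 (SE 0.07, adjusted p = 6.7e-66) for mt-Cytb, 1.70 (SE 0.07, adjusted p = 4.7e-53) for mt-Co1 and 1.69 (SE 0.07, adjusted p = 2.8e-51) for mt-Nd1. The median over the 37 genes was 2.35, against -0.13 over all genes. In muscle 36 genes were called higher, against 35.8% of all genes, with a median log2 difference of 1.24 over the 37 and -0.14 over all genes. mt-Nd1 differed by 1.56 (SE 0.07, adjusted p = 4.3e-47) and mt-Co1 by 1.17 (SE 0.07, adjusted p = 1.3e-34), while mt-Tp, the gene not called, had -0.19 (SE 0.11, adjusted p = 0.11). All 37 were called lower in subcutaneous fat, against 35.3% of all genes, and in visceral fat, against 29.2%. The medians over the 37 were -1.53 in subcutaneous and -1.82 in visceral fat, against 0.11 and 0.09 over all genes. These comparisons share libraries and are not independent.

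In liver 6 genes were called higher, all tRNA genes: mt-Ti, mt-Tq, mt-Ta, mt-Tn, mt-Tc and mt-Tp. Another 13 were called lower, where 35.4% of all genes were called higher and 50.0% lower. The direction in liver depended on the scaling of libraries. TMM, the scaling used here, sets libraries to a common centre of all genes. With plain library totals 0 members were higher and 31 lower, where 71.8% of all genes were lower, and the median over the 37 was -0.89, as was that over all genes. The medians over all genes with plain totals were -0.22 in brown fat, -0.61 in muscle, 0.81 in subcutaneous and 0.56 in visceral fat. Beside them, the members' medians were 2.27 in brown fat, 0.73 in muscle, -0.82 in subcutaneous fat and -1.32 in visceral fat. With plain totals 37 members were called higher in brown fat, against 29.9% of all genes, and 35 lower in both subcutaneous and visceral fat, against 11.7 and 7.91% of all genes. In muscle 34 were higher and 1 lower, where 22.2% of all genes were higher and 60.4% lower.

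Nuclear genes of oxidative phosphorylation moved in the same direction as the mitochondrial ones in 4 tissues. Of the 80 listed, 76 were higher and 3 lower in brown fat (median log2 difference 1.39), and 77 higher and 2 lower in muscle (1.08). In subcutaneous fat 1 was higher and 78 lower (-1.29), and in visceral fat 2 were higher and 78 lower (-1.13). In liver 22 were higher and 33 lower (-0.10). Of all genes, 34.3% were called higher in brown fat and 35.8% in muscle. Called lower were 35.3% in subcutaneous and 29.2% in visceral fat, and in liver 35.4% were higher and 50.0% lower. The 3 with the smallest adjusted p in brown fat were Cox6a1 and Cox8a, both subunits of complex IV, and Ndufab1, the acyl carrier protein in complex I. They differed by 2.57 (SE 0.06, adjusted p = 4.6e-81), 2.04 (SE 0.05, adjusted p = 9.6e-79) and 1.95 (SE 0.05, adjusted p = 1.8e-76). In muscle Atp5mc1, 1 of the genes for the membrane ring of ATP synthase, differed by 3.31 (SE 0.10, adjusted p = 8.6e-71). In liver Cox8b, the muscle and brown fat form of a complex IV subunit, differed by -6.79 (SE 0.36, adjusted p = 5.1e-41). By their medians, genes for handling mitochondrial RNA moved less in these 4 tissues, but not in liver. Of 15 genes for transcription and replication of the mitochondrial genome, 12 were higher and 1 lower in brown fat, with a median of 0.40, and 0 higher and 13 lower in visceral fat, with a median of -0.62. Of 20 genes for processing mitochondrial RNA, 18 were higher and 2 lower in brown fat, and 0 higher and 19 lower in subcutaneous fat. Of 19 genes for aminoacyl-tRNA synthetases of mitochondria, 18 were higher and 1 lower in brown fat, and 9 higher and 6 lower in muscle. In liver, 11 genes for transcription and replication were higher and 4 lower (median 0.27). For processing genes 16 were higher there and 2 lower (0.32), and for synthetases 11 higher and 5 lower (0.31). Of 10 genes for regulators of mitochondrial biogenesis, 6 were higher and 4 lower in brown fat. Esrra, a nuclear receptor that drives genes of mitochondrial biogenesis, was higher in brown fat by 1.76 (SE 0.05, adjusted p = 6.6e-74).

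Between strains, the members were tested in each tissue in a model with strain and diet. A filter on low counts passed all 37 in brown fat and muscle, 36 in subcutaneous fat (without mt-Tk) and 35 in liver and visceral fat (without mt-Tf and mt-Tk). A difference between any strains was called for 23 of 37 in brown fat (56.8% of all genes), 27 of 37 in muscle, or 26 of 36 without mt-Tg (45.5%) and 26 of 35 in liver (53.0%). It was called for 33 of 36 in subcutaneous fat (65.6%) and 13 of 35 in visceral fat (40.1%). Per the series' design text, the aligner's mismatch penalty was relaxed for the strains other than C57BL/6J. A strain difference, its alignment setting and its distance from the C57BL/6J reference therefore cannot be told apart.

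C57BL/6J differed from the mean of the other 3 strains most often in muscle and liver. In muscle 30 of 37 were called higher and 0 lower, against 13.1% of all genes called higher. This count holds mt-Tg, whose level in C57BL/6J muscle was one reason to describe it, and without it 29 of 36 were called higher, and the median of the 36 was 0.87 on the log2 scale. In liver 25 of 35 were higher and 0 lower, against 14.0%. In brown fat 11 of 37 were higher and 0 lower, against 13.4%. In subcutaneous fat 2 of 36 were higher and 13 lower, against 13.6% of all genes higher and 11.4% lower. In visceral fat 3 of 35 were higher and 0 lower, against 6.65%. The median log2 difference over the members tested was 0.90 in muscle, 0.71 in liver, 0.27 in brown fat, 0.21 in visceral fat and -0.60 in subcutaneous fat, where the median over all genes was close to 0. With plain library totals the median over all genes was -0.25 in muscle and -0.13 in brown and visceral fat. The calls in muscle were then 21 higher and 1 lower, where 5.23% of all genes were higher and 37.6% lower, and no member called with TMM changed sign. With limma on TPM, muscle had 15 higher and 1 lower, against 3.73% and 47.0% of all genes. The members tested in muscle with plain library totals and with limma include mt-Tg.

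**Figure D3:**
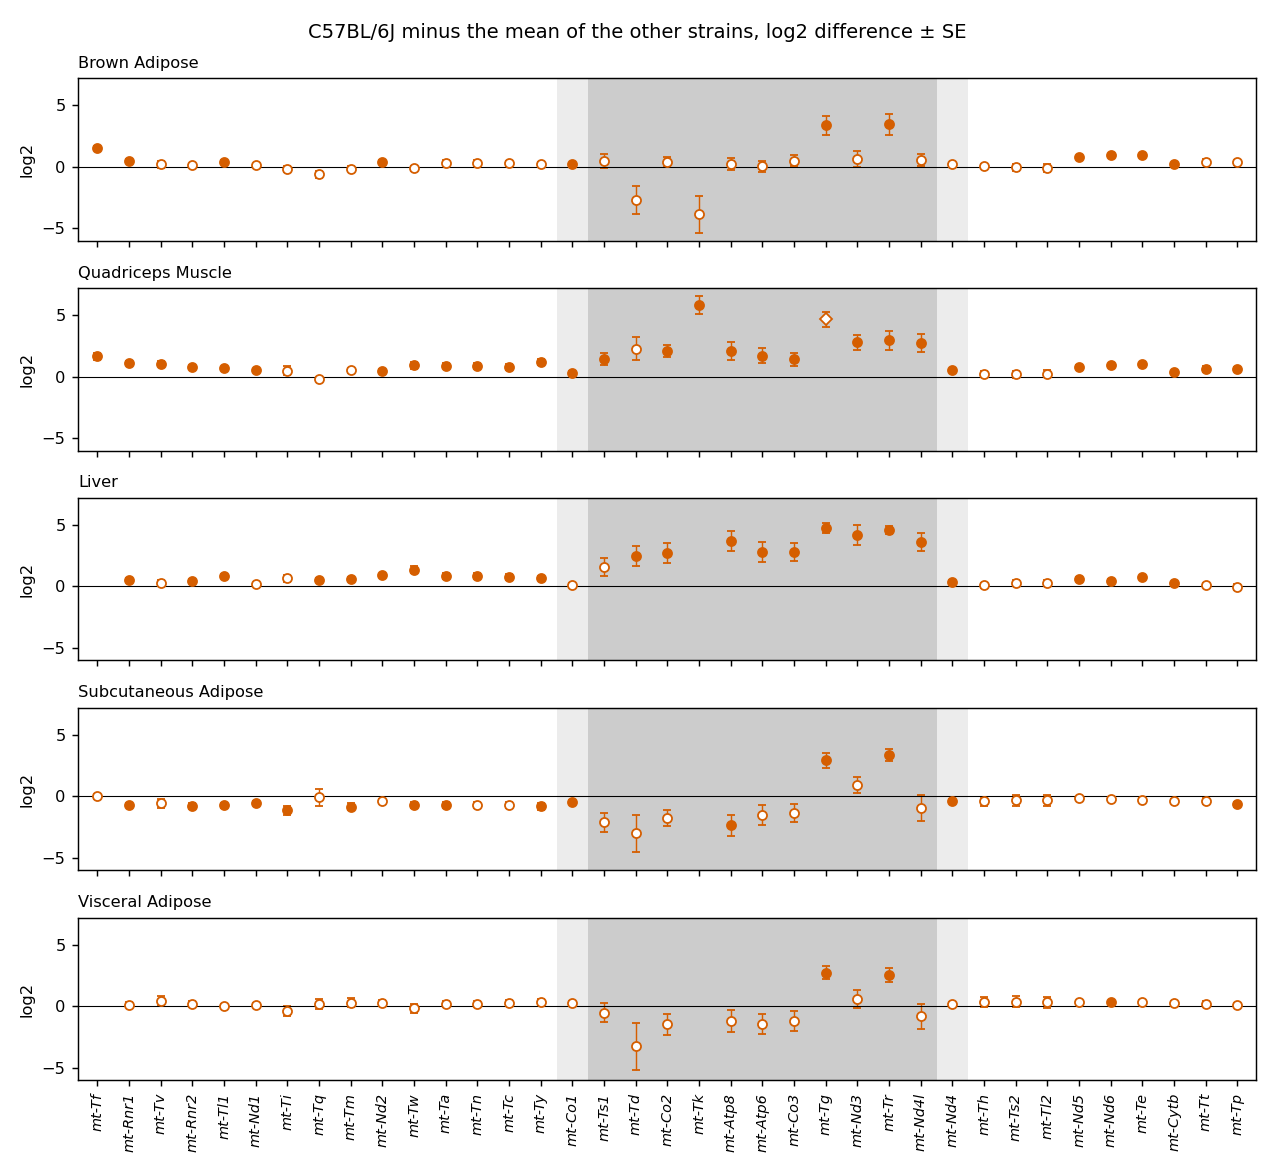
Log2 difference of C57BL/6J from the mean of the other strains with its SE for the 37 genes in genome order, 1 panel per tissue, with the copied stretch in grey and the genes partly in it in light grey. Filled points have an adjusted p under 0.05, and the open diamond is mt-Tg in muscle, which is shown without a test.

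The rRNA gene mt-Rnr1 was higher in C57BL/6J in brown fat, muscle and liver. In muscle it had 648 to 1393 CPM with a median of 1160.5 in the 8 C57BL/6J libraries, against 226 to 1317 CPM with a median of 586 in the 24 of the other strains, which overlapped, and differed by 1.07 (SE 0.17, adjusted p = 2.1e-05). In subcutaneous fat it was lower, with a log2 difference of -0.72 (SE 0.16, adjusted p = 0.001). mt-Rnr2 was higher in muscle, by 0.79 (SE 0.15, adjusted p = 1.5e-04), and in liver, by 0.43 (SE 0.14, adjusted p = 0.026), and lower in subcutaneous fat, with a log2 difference of -0.77 (SE 0.23, adjusted p = 0.016).

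Complex I genes outside the stretch were among the clearest. mt-Nd5 in brown fat had 12247 to 16556 CPM with a median of 13548 in the 8 C57BL/6J libraries, against 5961 to 12164 CPM with a median of 8813 in the 24 of the other strains. The groups did not overlap, and the log2 difference was 0.79 (SE 0.08, adjusted p = 6.4e-09). It was 0.80 (SE 0.14, adjusted p = 7.3e-05) in muscle and 0.60 (SE 0.13, adjusted p = 6.1e-04) in liver. mt-Nd6 was called higher in 4 tissues, by 0.92 (SE 0.12, adjusted p = 3.1e-07) in brown fat, 0.92 (SE 0.11, adjusted p = 1.2e-07) in muscle, 0.47 (SE 0.14, adjusted p = 0.0095) in liver and 0.32 (SE 0.11, adjusted p = 0.048) in visceral fat. The visceral call was lost in 31 of 40 alternatives, a number that counts each library left out as 1. mt-Nd5 and mt-Nd6 overlap at their ends on opposite strands, at positions 11742 to 13565 and 13552 to 14070. The strand setting of the counting is not given, so reads of the overlap cannot be assigned to either. The next gene, mt-Te, is also on the light strand, and was higher by 0.93 (SE 0.12, adjusted p = 9.5e-07) in brown fat, 0.98 (SE 0.15, adjusted p = 8.7e-06) in muscle and 0.74 (SE 0.14, adjusted p = 1.4e-04) in liver.

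mt-Nd2 in liver had 5179 to 9305 CPM with a median of 7972 in the 8 C57BL/6J libraries, against 2568 to 4613 CPM with a median of 4100.1 in the 24 of the other strains. The groups did not overlap, and the log2 difference was 0.91 (SE 0.10, adjusted p = 7.2e-09). mt-Nd1 was higher in muscle, by 0.50 (SE 0.11, adjusted p = 7.2e-04), and lower in subcutaneous fat, with a log2 difference of -0.54 (SE 0.15, adjusted p = 0.0071). mt-Nd4, partly in the stretch, was higher in muscle by 0.54 (SE 0.10, adjusted p = 2.3e-04) and in liver by 0.39 (SE 0.11, adjusted p = 0.0078). It was lower in subcutaneous fat, with a log2 difference of -0.40 (SE 0.15, adjusted p = 0.045), a call lost in 21 of 40 alternatives. Differences of mt-Cytb and mt-Co1 were smaller. mt-Cytb was higher by 0.24 in brown fat, 0.37 in muscle and 0.27 in liver on the log2 scale, and mt-Co1 by 0.22 in brown fat and 0.31 in muscle and lower by a log2 difference of -0.43 in subcutaneous fat, all called. The call of mt-Cytb was lost in 25 of 38 alternatives in liver and in 8 of 39 in brown fat.

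Genes whole inside the stretch had the larger differences. In muscle, mt-Tg left out, 9 of 10 were called higher, with a median log2 difference of 2.17 over the 10, against 18 of 24 and 0.72 for genes outside it. In liver 9 of 10 were called higher with a median of 3.20, against 15 of 23 and 0.53 outside. mt-Nd3 was higher by 2.78 (SE 0.61, adjusted p = 0.0012) in muscle and 4.17 (SE 0.81, adjusted p = 2.8e-04) in liver, mt-Nd4l by 2.73 (SE 0.76, adjusted p = 0.0088) in muscle and 3.59 (SE 0.75, adjusted p = 5.9e-04) in liver. The complex IV genes mt-Co2 and mt-Co3 were higher in muscle by 2.08 and 1.41 and in liver by 2.71 and 2.80 on the log2 scale. The complex V genes mt-Atp8 and mt-Atp6 were higher in muscle by 2.06 and 1.68 and in liver by 3.70 and 2.79, all called. In muscle the call was lost in 27 of 39 alternatives for mt-Co3, 14 of 39 for mt-Atp6 and 9 of 39 for mt-Atp8. Their groups overlapped widely: mt-Atp6 in liver had 4.48 to 563 CPM with a median of 94.8 in the 8 C57BL/6J libraries, against 4.32 to 434 CPM with a median of 11.4 in the 24 of the other strains. In subcutaneous fat mt-Atp8 was lower, with a log2 difference of -2.35 (SE 0.87, adjusted p = 0.048), but the call was lost in 23 of 40 alternatives, over which the difference ran from -2.62 to -0.65. In brown fat 2 of the 11 were called and in visceral fat 2 of 10, mt-Tg and mt-Tr in both.

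Of the tRNA genes outside the stretch, mt-Tf, the first gene of the heavy strand transcript, was higher by 1.49 (SE 0.17, adjusted p = 5.1e-08) in brown fat. It had 2.00 to 4.06 CPM with a median of 2.70 in the 8 C57BL/6J libraries, against 0.476 to 1.69 CPM with a median of 1.05 in the 24 of the other strains there, with no overlap. In muscle mt-Tf was higher by 1.63 (SE 0.28, adjusted p = 5.1e-05). mt-Tl1 was higher in brown fat, muscle and liver by 0.37, 0.67 and 0.82, and the brown fat call was lost in 22 of 39 alternatives. The light strand cluster of mt-Ta, mt-Tn, mt-Tc and mt-Ty was called higher in muscle and liver, by 0.78 to 1.21 in muscle and 0.71 to 0.85 in liver. mt-Tw (tryptophan) was higher in liver by 1.36 (SE 0.28, adjusted p = 4.0e-04). In subcutaneous fat, mt-Ti (isoleucine) was lower by a log2 difference of -1.13 (SE 0.37, adjusted p = 0.025).

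With mt-Tg in muscle left out, only mt-Tr was called higher in C57BL/6J in all 5 tissues. mt-Tg and mt-Nd6 were called higher in 4 tissues, 6 members in 3, 15 in 2 and 9 in 1. mt-Tg in C57BL/6J muscle was chosen for its level and is described without a test. The 8 C57BL/6J muscle libraries had 21.3 and 18.9 CPM on American, 20.5 and 5.70 on Mediterranean, 15.2 and 5.60 on Vegetarian and 3.56 and 11.4 on Vegan. Their median was 13.3 CPM. The 24 muscle libraries of the other strains had 0.0940 to 33.3 CPM with a median of 0.273. The groups overlapped in 4 libraries of the other strains that lay above the lowest C57BL/6J library, all from mice on Mediterranean. They were A/J mice 22 and 24 with 33.3 and 7.59 CPM and DBA/2J mice 38 and 39 with 10.7 and 15.4 CPM. The SJL mice on Mediterranean had 0.181 and 0.915 CPM. In the 4 A/J and DBA/2J libraries Alb stood at 0.985, 0.0105, 9.36 and 20.0% of its liver mean in the order named.

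In liver mt-Tg had 2.94 to 6.87 CPM with a median of 3.50 in the 8 C57BL/6J libraries, against 0 to 3.23 CPM with a median of 0.0514 in the 24 of the other strains. 1 library of the other strains lay above the lowest C57BL/6J library. The log2 difference was 4.78 (SE 0.41, adjusted p = 6.0e-12). In brown fat mt-Tg had 13.1 to 52.5 CPM with a median of 22.3 in the 8 C57BL/6J libraries, against 0.0783 to 43.3 CPM with a median of 0.521 in the 24 of the other strains, with 3 libraries of the other strains above the lowest C57BL/6J library. The log2 difference was 3.34 (SE 0.81, adjusted p = 0.0027). In subcutaneous fat mt-Tg had 1.08 to 6.35 CPM with a median of 3.91 in the 8 C57BL/6J libraries, against 0.0150 to 11.7 CPM with a median of 0.121 in the 24 of the other strains, with 3 such libraries. The log2 difference was 2.94 (SE 0.61, adjusted p = 4.7e-04). In visceral fat it had 0.905 to 4.58 CPM with a median of 3.03 in the 8 C57BL/6J libraries, against 0.0314 to 19.8 CPM with a median of 0.180 in the 24 of the other strains, with 6 such libraries, and differed by 2.74 (SE 0.54, adjusted p = 6.6e-04). In each tissue the median of the 24 libraries of the other strains lay far below the lowest C57BL/6J library. Outside visceral fat, at most 4 high libraries made the overlap. In visceral fat the median of the 8 SJL libraries was 1.19 CPM, above the lowest C57BL/6J library at 0.905 CPM.

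mt-Tr was likewise called higher in C57BL/6J and was tested in all 5 tissues. In liver it had 1.33 to 5.51 CPM with a median of 3.18 in the 8 C57BL/6J libraries, against 0 to 2.16 CPM with a median of 0.0735 in the 24 of the other strains and differed by 4.61 (SE 0.32, adjusted p = 3.8e-15). In muscle it had 1.43 to 11.4 CPM with a median of 4.71 in the 8 C57BL/6J libraries, against 0.0913 to 112 CPM with a median of 0.392 in the 24 of the other strains and differed by 2.95 (SE 0.78, adjusted p = 0.0059). The highest muscle library of the other strains lay above all C57BL/6J libraries. The log2 difference was 3.46 (SE 0.85, adjusted p = 0.0033) in brown fat, 3.34 (SE 0.48, adjusted p = 1.3e-06) in subcutaneous fat and 2.52 (SE 0.56, adjusted p = 0.0018) in visceral fat. The filter on low counts can be passed by 2 libraries. Both mt-Tg and mt-Tr may thus have entered these tests through the C57BL/6J libraries, where they were high. Their p-values are therefore no separate support for a strain difference. Between these genes lies mt-Nd3, at positions 9459 to 9806, after mt-Tg at 9391 to 9458 and before mt-Tr at 9808 to 9875.

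The member whose log2(CPM + 0.1) followed mt-Tg most closely over the 32 libraries of a tissue was mt-Nd3 in liver (r = 0.90), mt-Tr in visceral fat (0.83) and subcutaneous fat (0.77), mt-Co2 in muscle (0.74) and mt-Nd6 in brown fat (0.75). These Pearson correlations are descriptions. The libraries share strains, depth and, inside the stretch, reads that can be placed in more than 1 gene.

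The annotated genes of the nuclear copy were read for comparison. Gm28438, the copy of mt-Nd3, spans the position of T9461C and was called lower in C57BL/6J in the 3 fat depots. In brown fat it had 2.06 to 47.6 CPM with a median of 9.52 in C57BL/6J, against 35.9 to 379.6 CPM with a median of 68.2 in the other strains. The log2 difference was -2.46 (SE 0.56, adjusted p = 0.0016). In subcutaneous fat it had 0.115 to 16.0 CPM with a median of 0.572 in C57BL/6J, against 3.20 to 144 CPM with a median of 13.5 in the other strains, and differed by -3.67 (SE 0.74, adjusted p = 5.1e-04). It differed by -1.74 (SE 0.54, adjusted p = 0.032) in visceral fat. In liver the difference was -0.96 (SE 0.49, adjusted p = 0.16) and in muscle -0.06 (SE 0.70, adjusted p = 0.96), neither called. In muscle the medians were 6.46 CPM in C57BL/6J and 27.5 CPM in the other strains, and the means 36.7 and 40.2 CPM. For the other 6 copy genes in the table, log2 differences in muscle and liver lay between 1.55 and 2.45, all called except Gm10222, the copy of mt-Nd4l, in muscle with 1.55 (SE 0.61, adjusted p = 0.061), and in brown fat none was called. In subcutaneous fat 4 of these 6 were called lower in C57BL/6J, Gm10222 with -2.20 (SE 0.51, adjusted p = 0.002), Gm28437, which spans the copy of mt-Co3, with -2.33 (SE 0.69, adjusted p = 0.013), Atp6-ps with -1.86 (SE 0.60, adjusted p = 0.023) and Gm29216 with -1.80 (SE 0.63, adjusted p = 0.036). The other 2 had -1.77 and -1.26 there, and in visceral fat the 6 lay between -1.29 and -0.36, none called. The part of reads placed between mt-Tg, mt-Tr and the copy in the strain difference was not tested.

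**Figure D4:**
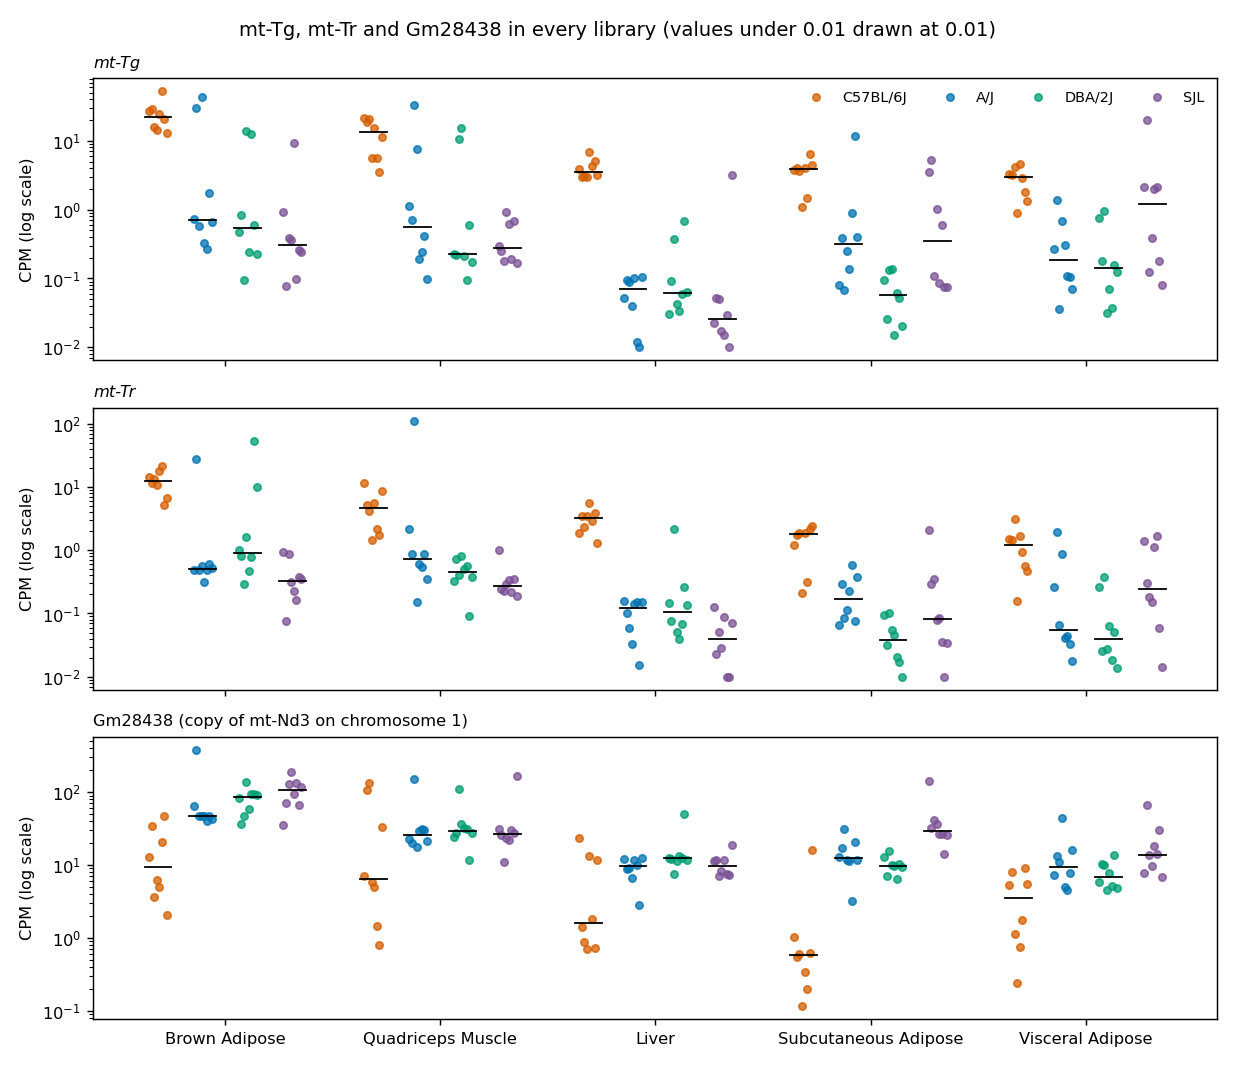
CPM of mt-Tg, mt-Tr and the nuclear copy gene Gm28438 in each library, by tissue and strain, on a log axis with values under 0.01 drawn at 0.01 and bars at the medians. C57BL/6J libraries lie high for mt-Tg and mt-Tr in every tissue and low for Gm28438 in brown and subcutaneous fat.

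Summed levels of cell markers by strain are given as a description, and the ranges of C57BL/6J and the other strains overlapped in each. Summed levels of 6 hepatocyte genes in liver ran from 76924 to 112870.0 CPM in C57BL/6J, against 83927 to 153113 CPM in the other strains. Those of 6 myofibre genes in muscle ran from 90788 to 145472 CPM in C57BL/6J, against 75955 to 128942 CPM in the others. Those of 6 slow fibre genes ran from 769.8 to 1891 CPM in C57BL/6J, against 1102 to 2642 CPM in the others. Hepatocyte genes summed to 33.1 to 28909 CPM in C57BL/6J muscle and to 13.6 to 47913 CPM in muscle of the others. No hepatocyte gene was at 0 in any muscle library. Without the 8 muscle libraries high in Alb, 31 of 37 members were higher in C57BL/6J and 0 lower. The 37 hold mt-Tg, which was chosen for its level and is no separate support. The 6 brown adipocyte genes in brown fat summed to 4918 to 10654 CPM in C57BL/6J, against 7992 to 14045 CPM in the others. Among them, Ucp1 had a median of 4207 CPM in C57BL/6J, against strain medians of 7285 to 8197 CPM. Cidea had 1668 CPM, against 1222 to 1753 CPM. The part of these marker levels in the strain differences of the members was not tested.

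Of the 80 nuclear oxidative phosphorylation genes, few differed in C57BL/6J where mitochondrial genes were higher. In muscle 3 were higher and 0 lower, in liver 2 higher and 5 lower, in brown fat 8 higher and 1 lower and in visceral fat 1 higher and 0 lower. Of all genes, 13.1% were called higher in muscle, 14.0% in liver, 13.4% in brown fat and 6.65% in visceral fat. In liver 2371 of 18636 genes were called lower. The count of higher genes in brown fat was near the share over all genes. In subcutaneous fat 1 was higher and 63 lower, against 13.6% and 11.4% of all genes, with a median log2 difference of -0.37. Cox7a2l, which helps join complexes III and IV and is known to carry a different allele in C57BL/6J than in some other inbred strains, was higher by 0.39 (SE 0.05, adjusted p = 1.7e-06) in brown fat and 0.44 (SE 0.06, adjusted p = 1.3e-06) in subcutaneous fat. Polrmt, the mitochondrial RNA polymerase, was higher in C57BL/6J muscle by 0.41 (SE 0.07, adjusted p = 3.8e-05), and Top1mt, the mitochondrial topoisomerase, by 0.43 (SE 0.07, adjusted p = 5.0e-05). In liver Top1mt was lower in C57BL/6J, with a log2 difference of -0.45 (SE 0.06, adjusted p = 1.1e-06).

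The C57BL/6J difference in subcutaneous fat was taken against a mean that included SJL, the strain with the highest share there. SJL was therefore set against the mean of the other 3 strains, a comparison added after the data were seen. In subcutaneous fat 34 of 36 members were called higher in SJL and 0 lower, against 21.9% of all genes called higher. mt-Tg and mt-Tr were the 2 not called, with 0.72 (SE 0.74, adjusted p = 0.46) and 0.17 (SE 0.51, adjusted p = 0.82). In brown fat 0 of 37 were higher and 17 lower, against 11.5% of all genes called lower. The median log2 difference over the members was 1.24 in subcutaneous fat and -0.71 in brown fat. In muscle 16 of 37, or 15 of 36 without mt-Tg, were lower (16.3% of all genes), in liver 4 of 35 (13.6%), and in visceral fat 0 of 35 were called in either direction (17.6%).

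The rRNA gene mt-Rnr1 in subcutaneous fat had 781 to 1256 CPM with a median of 1087 in the 8 SJL libraries, against 186 to 659 CPM with a median of 287 in the 24 of the other strains. The groups did not overlap, and the log2 difference was 1.74 (SE 0.14, adjusted p = 8.4e-11). In brown fat the difference was -0.15 (SE 0.15, adjusted p = 0.52). mt-Nd4 in subcutaneous fat had 5060.3 to 10667 CPM with a median of 5745 in the 8 SJL libraries, against 2455 to 4875 CPM with a median of 3046 in the 24 of the other strains, with no overlap, and differed by 0.98 (SE 0.13, adjusted p = 1.2e-06), while in brown fat it differed by -0.40 (SE 0.10, adjusted p = 0.0022). mt-Rnr2 was higher in subcutaneous fat by 1.69 (SE 0.20, adjusted p = 1.6e-07), mt-Co1 by 0.97 (SE 0.13, adjusted p = 6.2e-07), mt-Nd1 by 1.02 (SE 0.13, adjusted p = 6.6e-07) and mt-Cytb by 0.99 (SE 0.14, adjusted p = 2.7e-06). In brown fat mt-Nd5 was lower in SJL, with a log2 difference of -0.72 (SE 0.09, adjusted p = 2.1e-07), as were mt-Nd6, with -0.84 (SE 0.13, adjusted p = 9.1e-06), and mt-Te, with -0.91 (SE 0.14, adjusted p = 8.1e-06). Inside the stretch, mt-Co3 and mt-Td were higher in subcutaneous fat by 4.38 (SE 0.66, adjusted p = 6.8e-06) and 5.30 (SE 0.81, adjusted p = 4.1e-06). mt-Co3 had 17.3 to 2181 CPM in SJL, against 3.33 to 96.0 CPM in the other strains. mt-Td had 0 to 12.8 CPM with a median of 0.0711 in SJL, against 0 to 0.153 CPM in the other strains. For each gene, 5 of the 8 SJL libraries lay within the range of the others. mt-Td may have entered the test through its high SJL libraries, so its p-value is no separate support for a strain difference. mt-Tr and mt-Tg were lower in brown fat, with log2 differences of -4.02 (SE 1.11, adjusted p = 0.0086) and -3.13 (SE 1.09, adjusted p = 0.038), and the call of mt-Tg was lost in 11 of 39 alternatives.

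The difference between the depots was tested as an interaction over all 160 libraries. The SJL difference was larger in subcutaneous than in brown fat for 32 of 37 members, with a median log2 value of 1.99, against 0.04 over all genes, of which 14.1% were called in either direction. It was 2.24 (SE 0.25, adjusted p = 2.4e-12) for mt-Tl1, 1.48 (SE 0.18, adjusted p = 1.7e-10) for mt-Nd4, 1.47 (SE 0.18, adjusted p = 1.1e-10) for mt-Nd6, 1.44 (SE 0.18, adjusted p = 2.4e-10) for mt-Cytb and 1.95 (SE 0.25, adjusted p = 7.6e-10) for mt-Rnr1. The 5 not called were mt-Tk, mt-Tg, mt-Th, mt-Ts2 and mt-Tl2, with adjusted p of 0.066 to 0.39.

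Brown adipocyte markers moved with the SJL difference in subcutaneous fat. Ucp1 in the 8 SJL subcutaneous libraries stood at 14.8 to 45.1% of its brown fat mean, while A/J reached 24.0%, C57BL/6J 12.8% and DBA/2J 1.93%. All 6 brown adipocyte markers were measured, none was at 0 in any subcutaneous library, and their summed level ran from 1637 to 4359 CPM in SJL, against 61.9 to 2382 CPM in the other strains. All 8 SJL libraries are among the 14 subcutaneous libraries with muscle or brown fat transcripts, so SJL could not be fitted without them. The mitochondrial share of the remaining 18 subcutaneous libraries was 3.61 ± 0.516% (SD). The part of brown adipocyte RNA in the SJL difference was not tested, and a brown fat fragment in the dissection and brown-like cells within the depot cannot be told apart. The nuclear oxidative phosphorylation genes moved alike in subcutaneous fat, with 72 of 80 higher in SJL and 1 lower (median log2 difference 0.58), and in brown fat 1 was higher and 12 lower (-0.13). Of all genes, 21.9% were called higher in subcutaneous fat and 11.5% lower in brown fat. The brown fat count was near that share. The smallest adjusted p in subcutaneous fat were those of Cox8b, by 2.43 (SE 0.25, adjusted p = 1.7e-08), and of the complex III genes Uqcrfs1, by 1.07 (SE 0.12, adjusted p = 3.4e-08), and Uqcrc2, by 1.03 (SE 0.12, adjusted p = 5.0e-08).

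Diet was tested over the 4 diets in each tissue, and 1 member passed. None of the members was called in brown fat, where 0.416% of all genes were, nor in muscle, subcutaneous fat or visceral fat, where 0% of all genes were. At an unadjusted p under 0.05 there were 3 of 37 members in brown fat, where 12.8% of all genes were, 9 of 36 in muscle with mt-Tg left out (2.93%), 5 of 35 in liver (14.1%), 3 of 36 in subcutaneous fat (3.10%) and 5 of 35 in visceral fat (4.40%). DESeq2 called 2 in muscle, mt-Ts1 and mt-Co2 at an adjusted p of 0.044 each, against 0.0199% of all genes. It called 0 members in brown fat (1.39% of all genes) and in subcutaneous and visceral fat (0% in both). In liver 1 of 35 members was called, mt-Td (0.023 as adjusted p from edgeR), against 0.102% of all genes. mt-Td had 0 to 7.98 CPM with a median of 0.155 in the 8 Vegan livers, against 0 to 0.351 CPM with a median of 0.0291 in the 8 American ones. The groups overlapped, and C57BL/6J mouse 13 with 5.15 CPM and DBA/2J mouse 45 with 7.98 CPM were the high Vegan libraries. Over all 32 livers its median was 0.0367 CPM, near the floor. The filter on low counts can be passed by 2 libraries, so mt-Td may have entered the test through its high Vegan libraries. Its p-values are therefore no separate support for a diet difference. The log2 difference of Vegan minus American was 4.72 (SE 0.99, adjusted p = 0.042 from edgeR), where 0.0429% of all genes were called higher. The call rested on those libraries: without C57BL/6J Vegan mouse 13, or without DBA/2J Vegan mouse 45, 0 members were called, as also without SJL Vegan mouse 64, DBA/2J American mouse 33 or 34, with no filter or with limma. DESeq2 called mt-Rnr1 in liver instead, with an adjusted p of 0.048, against 1.20% of all genes.

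mt-Tg in muscle is described by diet without a test as well. It had 0.220 to 21.3 CPM with a median of 0.497 on American, 0.181 to 33.3 CPM with a median of 9.13 on Mediterranean, 0.0940 to 15.2 CPM with a median of 0.225 on Vegetarian and 0.0986 to 11.4 CPM with a median of 0.499 on Vegan, with 8 libraries each. The diets overlapped, and the Mediterranean median was the highest. No member had a strain by diet interaction by edgeR in any tissue, against 0.00990% of all genes in brown fat, 0.392% in visceral fat and 0% in the other tissues. At an unadjusted p under 0.05 there were 3 of 37 members in brown fat, where 7.90% of all genes were, 3 of 36 in muscle with mt-Tg left out (6.82%), 1 of 35 in liver (8.09%), 13 of 36 in subcutaneous fat (5.29%) and 23 of 35 in visceral fat (14.7%). DESeq2 called 3 members in brown fat (2.54% of all genes), 0 in muscle with mt-Tg left out (0.268%), 0 in liver (1.21%), 6 in subcutaneous fat (0.587%) and 19 in visceral fat (8.51%).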

How the data were processed

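RNA from 5 tissues of male mice of 4 strains on 4 diets was measured in 160 libraries, with 2 mice per strain, diet and tissue. Per the series' design text, the authors checked reads with FastQC, removed adapters with Trim Galore, aligned reads to GRCm39 with HISAT2, with a relaxed mismatch penalty for strains other than C57BL/6J, and counted them with HTSeq with fractional assignment. No version, annotation release or strand setting is given in the sources used here. The deposited estimated counts per Ensembl gene were used for shares, CPM and tests. The authors' deposited TPM table, whose gene lengths are not given, was used for levels between genes and as an alternative. Of 56980 identifiers, 56236 were named through GENCODE vM39.

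Counts were rounded and tested with edgeR 4.0.16 in R 4.3.3: filterByExpr (minimum count 10, minimum total 15), TMM, a robust quasi-likelihood fit and Benjamini-Hochberg adjustment over all genes, with 0.05 as threshold. SE is the log2 difference over the root of F. Each tissue had a model with strain and diet, a model of all 16 cells for the interaction, and tissues were compared over all 160 libraries. CPM are over plain library totals. Shares of the members have no test. Nuclear copies were found with blastn 2.17.0 in the GRCm39 genome of GENCODE, with any match on 1 autosome left out. In data simulated for C57BL/6J against the other strains in muscle (19605 genes, 197 changed), 75.3% of changes of 1 and 94% of changes of 2 on the log2 scale were recovered, and 4.57% of calls were false. The simulation added no outlying libraries and changed fewer genes than were called in the data. These rates may therefore not hold for the members, least of all for those in the copied stretch. Figures used matplotlib 3.10.9 and pandas 2.3.3 under Python 3.11.15.

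Depth was 18.0 to 54.8 M counts per library. The 80 pairs of libraries of 1 strain, diet and tissue included 0 identical ones, with a chi-square per gene of 10.7 to 586.4. Mouse numbers pair libraries across tissues, since they name the animal: over 148 pairs of tissues, deviations from cell means of the same mouse had a median correlation of 0.02 and a range of -0.47 to 0.72. A block of mouse was an alternative for comparisons of tissues. Other alternatives were RLE size factors, library sizes from nuclear genes, no filter, DESeq2 1.42.0 and limma 3.58.1 on log2 of TPM plus 1 or plus 0.1. Fits were also made without libraries holding other tissues' transcripts or low in their depot's marker, and with each library left out in turn. The SJL comparisons and plain library totals were added after the data were seen.

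The members and lists, including the nuclear genes of oxidative phosphorylation, of mitochondrial RNA handling and of cell types, were chosen with earlier results of these data known. Named were the protein and rRNA genes, mt-Tg, up to 8 tRNA genes of at least 1 CPM per tissue, up to 8 called members per test and the nuclear genes with the smallest adjusted p, at most 3 per comparison. Other genes named were chosen after their values were seen.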

Additional observations from a re-analysis of the deposited data

Results flagged for a closer look

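The 20 groups of 8 libraries of 1 strain and tissue were looked at for 3 measures, the mitochondrial share, the share of the copied stretch among mitochondrial counts and mt-Tg, which gives 60 sets of 8 values. In 15 of the 60 sets, from 10 of the 20 groups, 1 library lay far from the other 7. The criterion is met in about 1 set in 20 where values are normally distributed. The share of the stretch and mt-Tg, which gave 6 of the 15 each, were skewed, with a mean of 5.52 and a median of 0.648 CPM for mt-Tg in muscle. That rate therefore does not hold for them.

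The copied stretch took 8.53% of mitochondrial counts in brown fat of A/J American mouse 18 (group median 1.96%) and 7.37% in brown fat of DBA/2J Mediterranean mouse 39 (1.75%). It took 3.52% in liver of SJL Vegan mouse 64 (0.137%) and 5.88% in muscle of A/J Mediterranean mouse 22 (0.534%). In visceral fat it took 2.17% in A/J American mouse 20 (0.202%) and 5.32% in SJL American mouse 50 (0.177%).

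mt-Tg stood at 52.5 CPM in brown fat of C57BL/6J Vegetarian mouse 12 (group median 22.3 CPM) and at 9.16 CPM in brown fat of SJL Vegetarian mouse 57 (0.310 CPM). It stood at 3.23 CPM in liver of SJL Vegan mouse 64 (0.0258 CPM) and at 33.3 CPM in muscle of A/J Mediterranean mouse 22 (0.553 CPM). In subcutaneous fat of A/J Vegan mouse 30 it was 11.7 CPM (0.317 CPM), and in visceral fat of SJL American mouse 50 it was 19.8 CPM (1.19 CPM). SJL mouse 64 in liver, A/J mouse 22 in muscle and SJL mouse 50 in visceral fat stood apart in both measures.

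The mitochondrial share was 6.85% in muscle of SJL Vegan mouse 64 (group median 9.62%). In visceral fat it was 8.87% in A/J Mediterranean mouse 24 (3.96%) and 7.68% in SJL American mouse 50 (3.92%).

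The SJL difference was larger in subcutaneous than in brown fat for 32 of 37 members by the interaction test of edgeR, and under the alternatives tried for 31 to 33.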

How the results depend on the processing

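Counts of called members moved by over 1.5 times in few of the alternatives. Unless stated, counts in muscle in this section hold mt-Tg among the members tested. For C57BL/6J against the other strains, limma on TPM called 16 in muscle in place of 30. Without libraries high in Alb or low in their depot's marker, 9 in place of 15 were called in subcutaneous fat and 1 in place of 3 in visceral fat. Without libraries with muscle or brown fat transcripts, 7 were called in subcutaneous fat. The test of any strain difference called 15 members in muscle by limma in place of 27, 2 in visceral fat by limma and 7 with plain library totals in place of 13, and 6 in subcutaneous fat without libraries with muscle or brown fat transcripts, over the 3 strains left. For liver against the other tissues, limma called 34 and plain library totals 31, in place of 19. The diet test called 0 in liver with no filter or limma in place of 1. With mt-Tg left out, it called 2 in muscle with DESeq2 in place of 0. DESeq2 called an interaction for 3 members in brown fat, 6 in subcutaneous fat and 19 in visceral fat, in place of 0. With mt-Tg left out, it called 0 in muscle. Without libraries high in Alb or low in their depot's marker, 1 member each was called in brown and subcutaneous fat, in place of 0. The share as a sum of TPM was 39.7% in brown fat, 23.5% in muscle, 12.0% in subcutaneous fat, 10.6% in visceral fat and 9.82% in liver. The causes were not tested. Among counts and shares, 210 other values stayed within 1.5 times or 1 SD and 0 reversed.

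With 1 library left out, calls ranged from 23 to 32 in muscle, 16 to 28 in liver, 8 to 13 in brown fat, 6 to 20 in subcutaneous fat and 2 to 4 in visceral fat for C57BL/6J. Calls in liver were 16 without C57BL/6J Vegetarian mouse 9. In subcutaneous fat they were 7 without C57BL/6J American mouse 1 or Mediterranean mouse 7, 6 without Mediterranean mouse 8 and 9 without Vegetarian mouse 9. The test of any strain difference ranged from 22 to 25 in brown fat, 24 to 30 in muscle, 20 to 30 in liver, 31 to 36 in subcutaneous fat and 6 to 20 in visceral fat. The visceral count was 20 without A/J Mediterranean mouse 24, and without single C57BL/6J or DBA/2J libraries between 6 (DBA/2J Mediterranean mouse 40) and 8. SJL calls ranged from 31 to 34 in subcutaneous and 14 to 18 in brown fat. Diet calls ranged from 0 to 1 in liver and in muscle, with 1 in muscle without C57BL/6J Mediterranean mouse 8, and were 0 elsewhere. Interaction calls ranged from 0 to 1 in brown fat (1 without A/J American mouse 17) and in liver (1 without SJL Vegan mouse 63). In visceral fat they ranged from 0 to 10, with 10 without A/J Mediterranean mouse 22, 5 without SJL Vegetarian mouse 59, 2 without SJL American mouse 49 and 1 without DBA/2J Mediterranean mouse 40 or SJL Vegetarian mouse 57. Of 134 single differences of members, the call was kept 4001 times and lost 287 times with 1 library left out, kept 822 times and lost 109 times under the other settings, and 0 reversed.

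With mouse as a replicate block, the tissue comparisons called 37 members in brown fat, 36 in muscle, 21 in liver and 37 in both subcutaneous and visceral fat, and the depot difference of SJL 31, against 37, 36, 19, 37, 37 and 32 without it, in that order. Levels under about 0.1 CPM rest on a few counts, and the limits of fractional counting, in the copied stretch and outside it, hold for all settings.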
